A study of Mus musculus with 7 samples.

Results

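Transient receptor potential (TRP) channels were examined as a group of 9 genes in injured mouse dorsal root ganglia: Trpv1, Trpv2, Trpa1, Trpm2, Trpm3, Trpm4, Trpm7, Trpm8 and Trpc1. They were chosen by gene symbol, all 9 were found among the 54309 genes of the deposited table, and all 9 passed the filter on low values (a mean of at least 1 TPM over the samples). Dorsal root ganglia hold the cell bodies of the sensory neurons that serve the body and limbs. Male C57bl/6 mice of 6 to 8 weeks received a sciatic nerve lesion at ZT8 or ZT20, where ZT (Zeitgeber time) counts hours from lights on. The L4-6 ganglia were collected 72 h after it and digested with enzymes, and neurons were enriched on a BSA gradient. The groups were ZT20 with 4 samples and ZT8 with 3, and the comparison asks how the channel transcripts of injured ganglia differ with clock time. Both groups were injured, and injury and dissection share 1 clock time in each, so neither the effect of injury nor the separate effects of those times can be read from these groups. The labels do not say whether samples came from separate animals, so p-values measure the spread between these samples, which may be technical.

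TRP channels are cation channels that open to temperature, chemicals and signals from inside the cell. TRPV1 responds to noxious heat, acid and capsaicin, TRPA1 to pungent and reactive irritants, TRPM8 to cooling and menthol, and TRPM3 to heat and steroids. In the ganglion, Trpv1 and Trpa1 are best known from small nociceptors, Trpm8 from a small population of cold-sensing neurons and Trpv2 from larger neurons. TRPM7, by contrast, is made in most cell types and carries a kinase domain that the thermal channels lack.

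Trpv1 and Trpc1 were higher at ZT20 than at ZT8, and Trpm7 had the single negative difference. For each gene the difference is ZT20 minus ZT8 on the log2(TPM + 1) scale, which understates changes of low genes, with its standard error (SE) and a limma p-value adjusted by Benjamini-Hochberg over 14800 genes. By this test 2 of 9 members (22.2%) passed an adjusted p-value of 0.05, both higher at ZT20, against 16.4% of all tested genes, 12.8% higher and 3.61% lower. The difference was positive on this scale for 8 of the 9 members with a median of 0.56 (Trpm3, at 0.06, had the lower mean TPM at ZT20), while it was positive for 66.4% of all tested genes with a median of 0.23. Every ZT20 library lay above every ZT8 library for 4 of the 9 members (Trpv1, Trpa1, Trpm4 and Trpc1), against 24.5% of all tested genes.

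Some libraries went against their labels or stood apart. The samples are labelled male, yet in ZT20 replicates 3 and 4 the Y-linked genes Ddx3y, Eif2s3y and Uty were listed at 0 and Xist was at 2.21 and 2.30 TPM, and ZT20 replicate 2 held both Xist (1.08 TPM) and Y-linked transcripts. Without replicates 3 and 4 no member and 0 of 14687 genes passed by limma (2378 genes and 2 members had an unadjusted p-value under 0.05), and all 9 members kept the sign of their difference. ZT8 replicate 2 had 18297 genes above 0 TPM, against 22541 to 25238 in the other 6 libraries. Sequencing depth cannot be read from TPM.

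Promoter sequences are shown for the called genes Trpv1 and Trpc1 and for Trpm7, whose difference ran the other way, because the clock acts on many genes through short promoter motifs. They are the 250 bases before the gene start in RefSeq (build GRCm38.p6), whose promoter table held 7 of the 9 members with 10 starts. The window of Trpv1 is chr11:73233899-73234148 (plus strand), that of Trpc1 chr9:95750349-95750598 (minus strand) and that of Trpm7 chr2:126876262-126876511 (minus strand). Capitals mark the CACGTG E-box, the site bound by CLOCK and BMAL1.
Trpv1: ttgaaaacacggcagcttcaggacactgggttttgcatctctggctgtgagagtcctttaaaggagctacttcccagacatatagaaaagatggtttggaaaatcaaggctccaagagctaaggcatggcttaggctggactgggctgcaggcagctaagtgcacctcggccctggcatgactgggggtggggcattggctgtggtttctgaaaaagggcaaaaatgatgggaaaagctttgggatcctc
Trpc1: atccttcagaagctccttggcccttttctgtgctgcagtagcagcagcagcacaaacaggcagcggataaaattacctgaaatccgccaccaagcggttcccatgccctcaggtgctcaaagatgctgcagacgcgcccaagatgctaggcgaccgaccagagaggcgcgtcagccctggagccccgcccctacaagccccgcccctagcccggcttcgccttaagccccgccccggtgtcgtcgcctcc
Trpm7: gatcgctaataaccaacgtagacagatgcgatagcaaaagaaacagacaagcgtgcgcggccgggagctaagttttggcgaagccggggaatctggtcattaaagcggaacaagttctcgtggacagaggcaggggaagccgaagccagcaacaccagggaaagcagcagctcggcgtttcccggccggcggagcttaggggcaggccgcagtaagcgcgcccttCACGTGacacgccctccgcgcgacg

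The first base of the Trpm7 E-box lies 25 bases before the start. Of the 10 member windows 1 held an E-box, that of Trpm7, and it was found in 6.02% of 32851 RefSeq promoter windows of this length. Both strands were searched for 4 further motifs, none of which contains another or the E-box. These were the D-box (TTATGTAA or TTACGTAA, in 0.931% of windows), the ROR half-site AGGTCA (14.0%), the cAMP response element TGACGTCA (1.55%) and the AP-1 site TGAGTCA (4.46%). Of the 10 member windows, the ROR half-site was in 1, a second start of Trpm3, and the other motifs of these 4 in none. The windows also differed in CpG dinucleotides, with 26 in Trpm7, 17 in Trpc1, 2 in Trpv1 and 1 in Trpm8, where the median of all windows was 6. A match is a string of letters in a window and does not show that a factor binds there.

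Trpv1, the capsaicin and heat receptor, was at 36.8, 28.2, 51.3 and 38.1 TPM at ZT20 and at 17.4, 18.1 and 22.3 TPM at ZT8, here and below in the order of the replicate numbers. The lowest ZT20 library lay above the highest ZT8 library, and ZT20 replicate 3 was the highest of its group. The mean was 38.6 TPM (SD 9.54, n = 4) against 19.3 TPM (SD 2.68, n = 3), a 2.0-fold ratio of means. The log2 difference was 0.94 (SE 0.21, 95% interval 0.47 to 1.42, limma adjusted p = 0.0208). Leaving out each library in turn kept the difference between 0.80 and 1.08, with adjusted p-values from 0.0193 to 0.0639, above 0.05 without ZT20 replicate 1, 3 or 4. Without ZT20 replicates 3 and 4, which lacked Y-linked transcripts, it was 0.72 with adjusted p = 0.222.

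Trpa1, the irritant receptor found in a subset of Trpv1 neurons, was at 16.1, 16.2, 18.7 and 15.8 TPM at ZT20 and at 10.1, 14.8 and 8.80 TPM at ZT8. The groups did not overlap, but ZT8 replicate 2 lay just below the ZT20 libraries. The log2 difference of 0.56 (SE 0.20, limma adjusted p = 0.0871) did not pass. Trpv1 transcript exceeded Trpa1 transcript in each of the 7 libraries, by 1.74 to 2.74 times at ZT20 and 1.22 to 2.54 times at ZT8.

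Trpm8, the cold and menthol receptor, was at 4.26, 4.34, 4.74 and 3.82 TPM at ZT20 and at 0.898, 4.75 and 0.821 TPM at ZT8. ZT8 replicates 1 and 3 lay below every ZT20 library, whereas ZT8 replicate 2 lay above all 4. With all samples the log2 difference was 0.96 (SE 0.40, limma adjusted p = 0.129). Without ZT8 replicate 2 it was 1.51 (SE 0.18, limma adjusted p = 0.00398). Trpm8 marks few neurons of a ganglion, and in bulk samples fewer cells of a type and less RNA per cell cannot be told apart.

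Some other members were also high in ZT8 replicate 2. Relative to the mean of the other ZT8 libraries on the log2 scale, Trpm8 was higher by 1.63 (percentile 98.0 among all tested genes), Trpm3 by 1.21 (95.1), Trpm2 by 1.01 (92.7) and Trpa1 by 0.60 (83.6). Trpm7 was at 0.29 (71.4), Trpm4 at 0.16 (65.1), Trpv1 at -0.12 (50.2), Trpv2 at -0.45 (33.0) and Trpc1 at -1.06 (13.4), and the median gene was at -0.12. Without this library 5 of 9 members passed, against 20.6% of all tested genes: Trpv1, Trpc1 and Trpm8, with Trpa1 at 0.76 (limma adjusted p = 0.0131) and Trpm2 at 0.97 (limma adjusted p = 0.0100). The summed TPM of 15 neuron markers was also lowest there, at 17554, and that of 5 erythroid markers highest, at 9534 against 951 to 6679 in the other libraries. The part of these differences in the channel values was not tested.

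**Figure D1:**
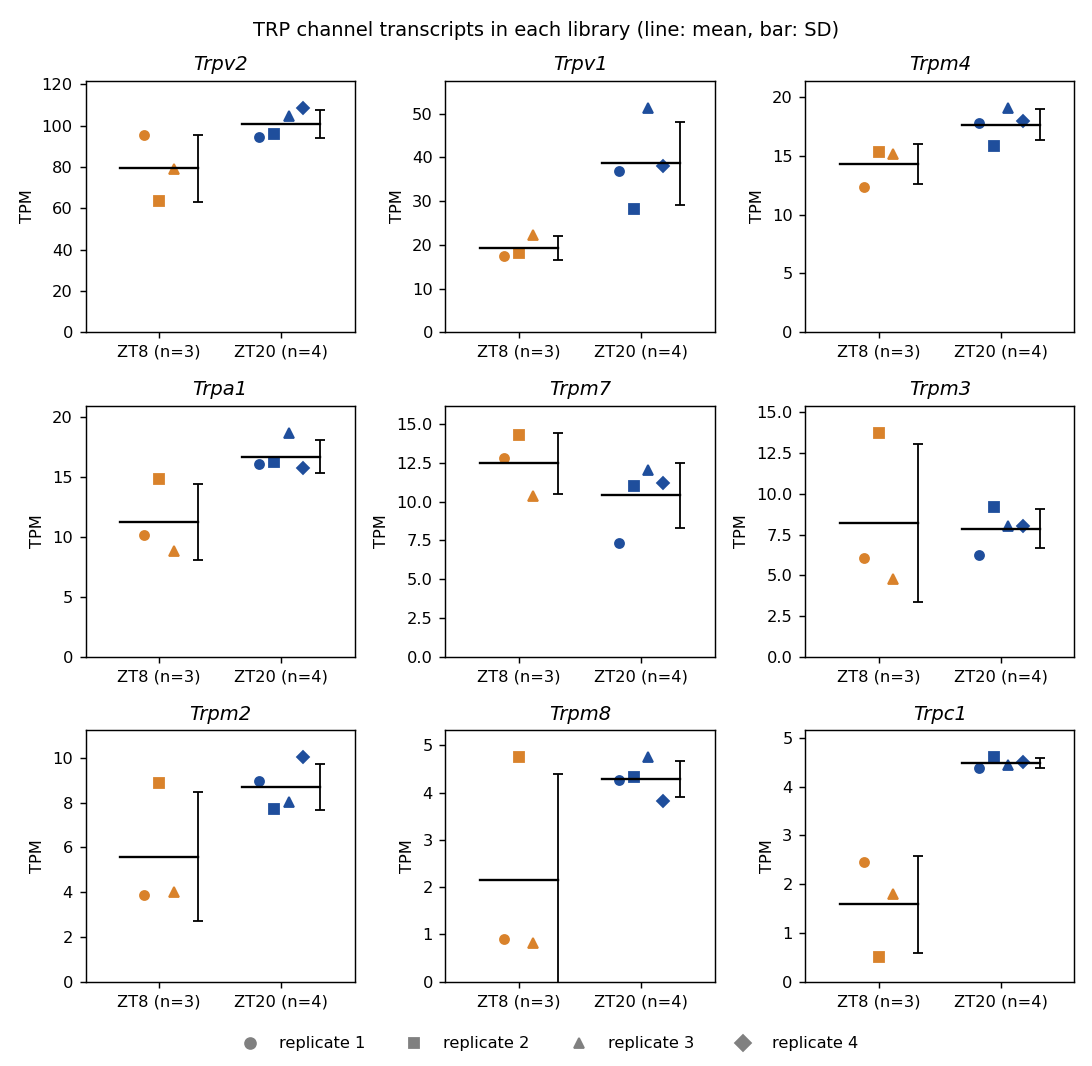
TPM (linear axis from 0) of each TRP channel gene in the 3 ZT8 and 4 ZT20 libraries, ordered by mean level; symbols are replicates, lines the group means and bars 1 SD, with the Trpm8 bar at ZT8 cut at 0. Trpv1 and Trpc1 were apart between the groups, while ZT8 replicate 2 (square) lay at 4.75 TPM for Trpm8 and 13.8 TPM for Trpm3, above every ZT20 library.

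Trpm3, a heat-activated channel that also responds to pregnenolone sulfate, was at 6.24, 9.19, 8.04 and 8.02 TPM at ZT20 and at 6.05, 13.8 and 4.81 TPM at ZT8. The ZT20 libraries lay inside the ZT8 range, which ZT8 replicate 2 set at its upper end. The log2 difference was 0.06 (SE 0.32, 95% interval -0.67 to 0.79, limma adjusted p = 0.912), while the mean TPM ran the other way, at 7.87 TPM (SD 1.22, n = 4) for ZT20 and 8.21 TPM (SD 4.85, n = 3) for ZT8. Its sign turned under median-ratio scaling, under quantile normalization and when the samples were scaled to neuron markers. In GENCODE M21 the gene overlaps 2 other transcribed units on its own strand, a pseudogene and the microRNA gene Mir204, and 3 on the other strand, so reads there may be shared. Trpm4, Trpm7 and Trpm8 each overlap 1 gene on the other strand (Rpl14-ps1, Gm14212 and 4930453O03Rik) and Trpm2 overlaps 2 snoRNA genes, while Trpv1, Trpv2, Trpa1 and Trpc1 overlap none.

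Trpm2, a channel opened by ADP-ribose and oxidative stress and linked to warmth sensing, was at 8.98, 7.72, 8.03 and 10.02 TPM at ZT20. At ZT8 it was at 3.87, 8.90 and 3.99 TPM, so that replicates 1 and 3 lay below the ZT20 range and replicate 2 within it. The log2 difference of 0.63 (SE 0.28, limma adjusted p = 0.147) did not pass.

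Trpv2, a relative of TRPV1 with a much higher heat threshold in cultured cells, was the most abundant member. It was at 94.3, 96.0, 105 and 109 TPM at ZT20 and at 95.6, 63.4 and 78.9 TPM at ZT8. ZT8 replicate 1 lay within the ZT20 range and the other ZT8 libraries below it. The log2 difference of 0.36 (SE 0.15, limma adjusted p = 0.132) did not pass. It was 0.21 without ZT8 replicate 2, and its sign turned to -0.11 when samples were scaled to neuron markers. Trpv2 and Trpm2 are also made by macrophages. The summed TPM of 10 macrophage markers overlapped between the groups (338 to 683 at ZT20, 370 to 844 at ZT8), and its part in these values was not tested.

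Trpm4, a calcium-activated channel that passes sodium and potassium but hardly calcium, was at 17.8, 15.9, 19.1 and 17.9 TPM at ZT20 and at 12.3, 15.4 and 15.2 TPM at ZT8. The groups were apart by a small margin. The log2 difference of 0.29 (SE 0.16, limma adjusted p = 0.221) did not pass and became -0.15 when samples were scaled to neuron markers.

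Trpc1, a subunit that joins other TRPC proteins in receptor-operated channels, had the largest log2 difference of the 9 in the fit to all 7 libraries as deposited. Without ZT8 replicate 2 and with array weights those of Trpm8, Trpv1 and Trpm2 were larger. Under quantile normalization that of Trpm8 was larger, and after the length and GC correction that of Trpm7 (-0.81) was larger in size. Trpc1 was at 4.38, 4.60, 4.46 and 4.50 TPM at ZT20 and at 2.46, 0.498 and 1.81 TPM at ZT8. The ZT20 libraries were nearly equal and all ZT8 libraries lay lower, with replicate 2 lowest. The mean was 4.49 TPM (SD 0.0956, n = 4) against 1.59 TPM (SD 0.999, n = 3), a 2.82-fold ratio of means, and the log2 difference was 1.17 (SE 0.31, 95% interval 0.47 to 1.87, limma adjusted p = 0.0355). Leaving out each library in turn gave 0.82 to 1.42 with adjusted p-values from 0.0212 to 0.0990. It passed without ZT8 replicate 1 or 2 and not without any other library. Without ZT20 replicates 3 and 4 it was 1.17 with adjusted p = 0.284.

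Trpm7, a broadly made magnesium- and calcium-permeable channel with a kinase domain, was at 7.34, 11.0, 12.1 and 11.2 TPM at ZT20 and at 12.8, 14.3 and 10.4 TPM at ZT8. The ranges overlapped, with ZT20 replicate 1 the lowest library of the 7. The log2 difference was -0.25 (SE 0.21, 95% interval -0.74 to 0.24, limma adjusted p = 0.428), and it was -0.11 without ZT20 replicate 1 and -0.16 without ZT8 replicate 2. It was negative in 18 of the 19 other settings that were run and 0.39 with the marker score as covariate. This score is the mean log2(TPM + 1) of neuron markers minus that of satellite glia and Schwann cell markers. The score did not overlap between the groups (3.78 to 4.22 at ZT20, 3.35 to 3.59 at ZT8), so that fit hardly separates it from the group.

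The mean level differed 28.3-fold between the highest and the lowest member, and TPM, a value per transcript length, allows levels to be compared between genes. Trpv2 (mean 91.7 TPM over the 7 libraries) lay above Trpv1 (30.3 TPM), and Trpv1 above Trpm4 (16.2 TPM), in each of the 7 libraries and with ranges apart in both groups. Trpm4 lay above Trpa1 (14.4 TPM) in 6 libraries and Trpa1 above Trpm7 (11.3 TPM) in 5, with ranges overlapping in both groups for the first pair and at ZT8 for the second. Trpm3 (8.01 TPM) and Trpm2 (7.36 TPM) overlapped in both groups, as did Trpm8 (3.38 TPM) and Trpc1 (3.24 TPM). Trpm7 exceeded Trpm3, and Trpm2 exceeded Trpm8, in each library although ranges overlapped at ZT8 for both pairs and at ZT20 for the first.

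The mix of the 9 transcripts within a library, taken from the TPM as deposited, is the same under any single scaling factor per library, but not under quantile normalization or the length and GC correction, which move genes by different amounts. Their summed TPM was 193 to 231 at ZT20 and 147 to 162 at ZT8. Trpm7 made up 3.74% to 5.70% of that sum at ZT20 and 7.06% to 9.27% at ZT8, without overlap. Trpc1 made up 1.93% to 2.38% at ZT20 and 0.324% to 1.52% at ZT8, also without overlap. The share of Trpv1 averaged 18.3% (SD 3.15, n = 4) at ZT20 against 12.6% (SD 2.33, n = 3) at ZT8, and the ranges met, with ZT20 replicate 2 at 14.6% and ZT8 replicate 3 at 15.2%. Trpv2 held 41.2% to 59.2% of the sum in each library. These shares are a description and were not tested.

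**Figure D2:**
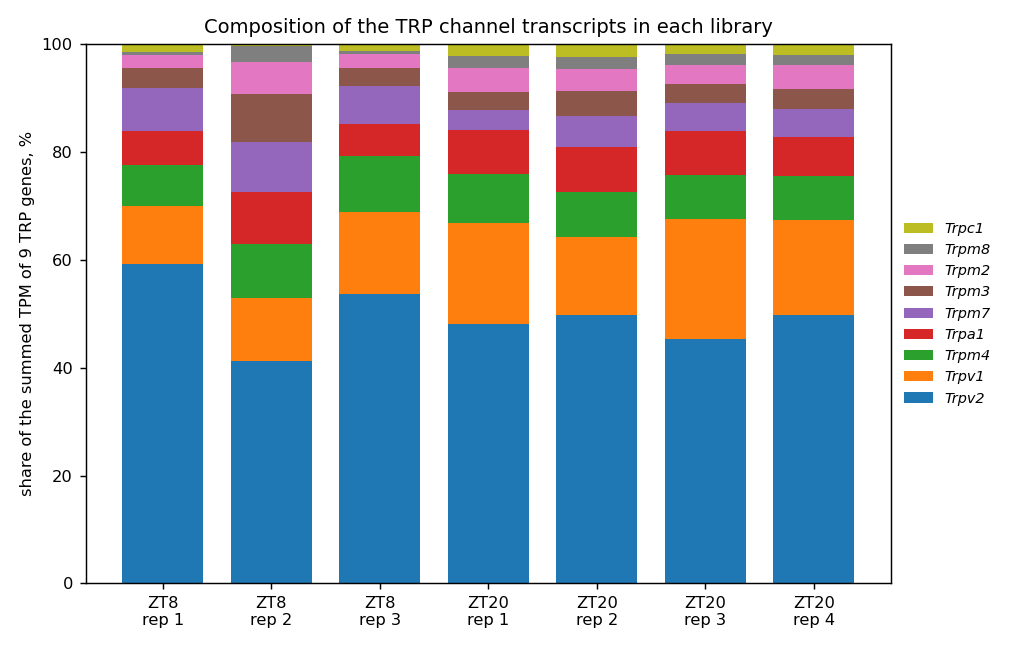
Share in percent of each TRP channel gene in the summed TPM of the 9 genes, as a stacked bar for each library. Trpm7 took 7.06% to 9.27% in the ZT8 libraries and 3.74% to 5.70% at ZT20, and Trpm8 took 3.08% in ZT8 replicate 2 against 0.556% and 0.558% in the other ZT8 libraries.

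Differences between the groups followed transcript length across the table, so each member was set beside genes of its own length (longest transcript in GENCODE M21, tested genes in 10 groups of equal size by length). In the shortest group the median log2 difference was -0.03 and in the longest 0.69. Trpv1 (3361 nt) at 0.94 stood above the median of its length group, 0.24, in which 8.41% of genes were called higher. Trpm8 (4146 nt) at 0.96 and Trpv2 (3671 nt) at 0.36 belonged to a length group with a median of 0.36, where 13.5% were called higher. Trpc1 (4559 nt) at 1.17, Trpa1 (4263 nt) at 0.56 and Trpm4 (4315 nt) at 0.29 belonged to one with a median of 0.47, where 19.8% were called higher. Trpm2 (7274 nt), Trpm7 (7107 nt) and Trpm3 (12305 nt) all fell in the longest group, where 36.5% were called higher. Trpm2 at 0.63 was close to the median there, while Trpm3 at 0.06 and Trpm7 at -0.25 lay below it.

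Once the dependence on length and GC content had been taken out of each library, Trpm7 was lower at ZT20 by a called difference. Its log2 difference was -0.81 (SE 0.19, limma adjusted p = 0.0354), and it was the 1 of 9 members that passed, against 9.06% of 14745 genes. Trpv1 was then at 0.67 (limma adjusted p = 0.0664) and Trpc1 at 0.76 (limma adjusted p = 0.125), so neither passed. Trpv2 was at 0.0032 and Trpm2 at -0.07, and Trpm3 was at -0.65 (limma adjusted p = 0.203). The origin of the length trend was not tested.

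**Figure D3:**
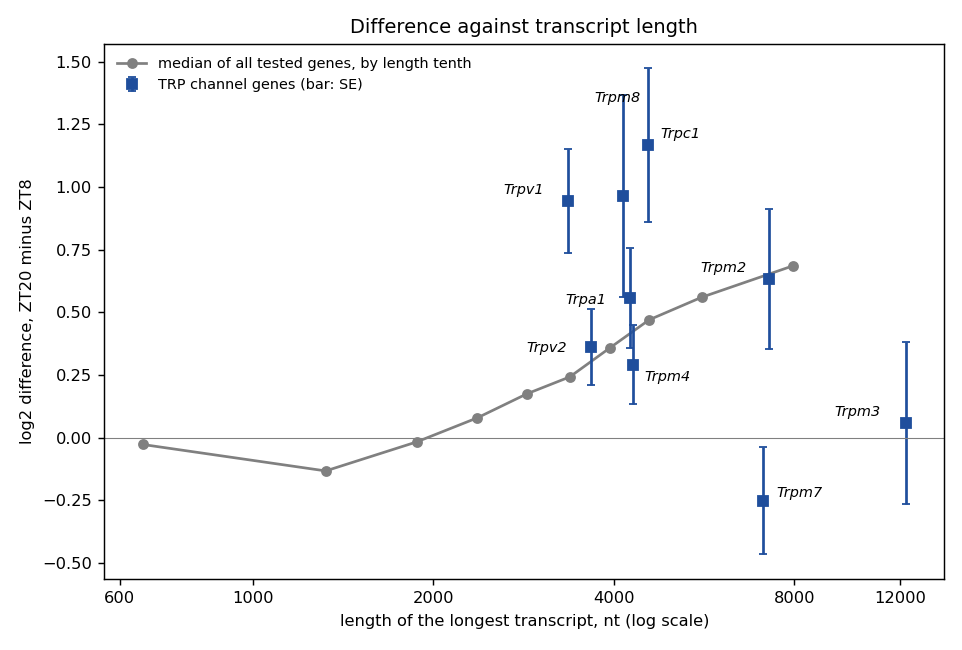
Log2 difference (ZT20 minus ZT8) against the length of the longest transcript in nt (log axis); grey points are medians of all tested genes in 10 groups by length, squares the TRP channel genes with 1 SE. Trpv1, Trpm8, Trpc1 and Trpa1 lie above the grey line and Trpm4 below it, with Trpv2 and Trpm2 close to it. Trpm7 (-0.25) and Trpm3 (0.06) lie below its value of 0.69 for the longest genes.

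Neuron content and scaling were measured beside the channels. The counts for each gene list stand against 12.8% of all tested genes higher at ZT20, 3.61% lower and a median of 0.23. Of 15 neuron markers 4 were higher at ZT20 and none lower (Nefh, Pou4f1, Elavl4 and Syt1, by 0.75 to 1.36; median of the list 0.31), and their summed TPM was 22302 to 26329 at ZT20 and 17554 to 23883 at ZT8. Of 10 satellite glia markers 4 were lower and none higher (among them Apoe at -0.88, Ptn at -0.67 and Fabp7 at -0.39; median of the list -0.39), with sums of 7790 to 9524 at ZT20 and 13116 to 15924 at ZT8, which did not overlap. No marker of either list was at 0 in all libraries. The scaling to neuron markers used their geometric mean, not the sum. That mean did not overlap between the groups, with relative values of 1.13 to 1.17 at ZT20 and 0.72 to 0.94 at ZT8. With each sample scaled to its neuron markers, Trpv1 was at 0.49 (SE 0.20, limma adjusted p = 0.120), Trpc1 at 0.87 (limma adjusted p = 0.0830) and Trpm7 at -0.69 (limma adjusted p = 0.0868). Of the 9 members 0 passed, against 20.2% of all tested genes (562 higher, 2434 lower). By limma 3 of the 9 then had an unadjusted p-value under 0.05. That scaling moved the median of all genes to -0.17, and median-ratio scaling moved it to 0.03, with Trpv1 at 0.72 (limma adjusted p = 0.0389) and Trpc1 at 1.02 (limma adjusted p = 0.0539).

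**Figure D4:**
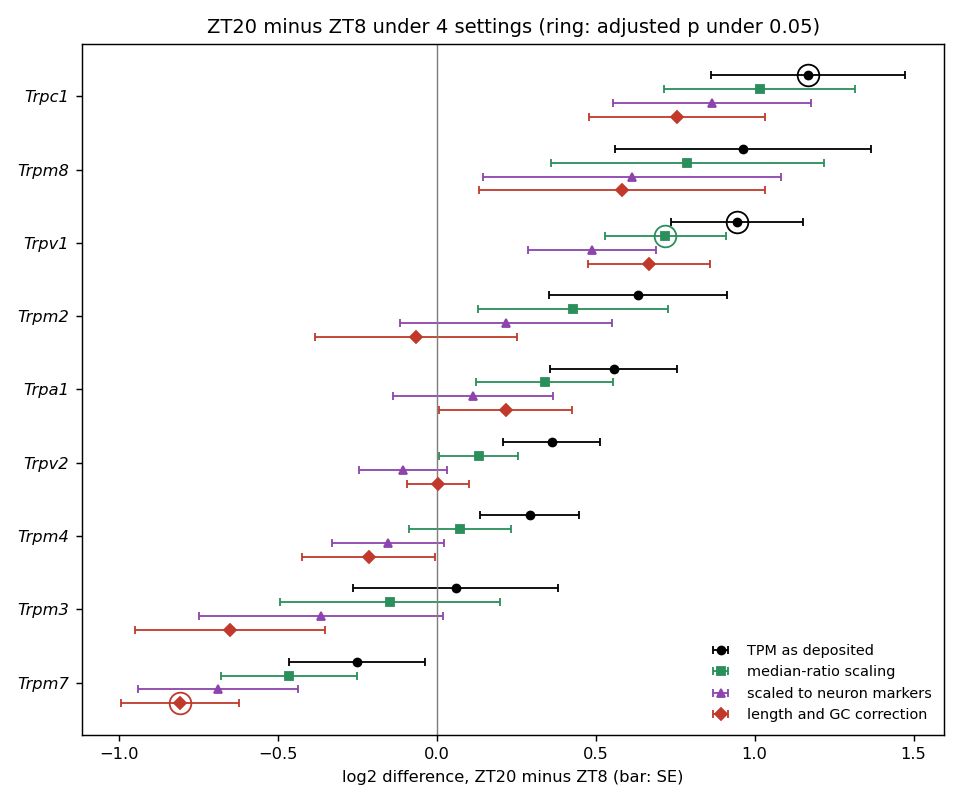
Log2 difference (ZT20 minus ZT8) of each TRP channel gene with 1 SE, for TPM as deposited, median-ratio scaling, scaling to neuron markers, and the length and GC correction; rings mark limma adjusted p-values under 0.05. Trpc1, Trpm8 and Trpv1 were positive in all 4, and Trpm7 was negative in all 4 and ringed after the length and GC correction, at -0.81.

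Among the other 19 TRP channel genes 8 were tested (median 0.24). The lysosomal channel Mcoln1 was the most abundant of them, at 97.5 to 114 TPM at ZT20 and 37.0 to 114 TPM at ZT8, and Trpc6 was at 5.31 to 8.12 and 6.87 to 7.68 TPM. Neither passed (limma adjusted p = 0.344 and 0.810). The skin and kidney channels Trpv3, Trpv5 and Trpv6 reached at most 0.234 TPM in any library.

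Proteins that act on sensory TRP channels formed a list of 24 with 23 tested. Of these, 7 were higher and none lower at ZT20 (median 0.49), against 12.8% higher and 3.61% lower of all tested genes (median 0.23). The calcineurin subunits Ppp3ca and Ppp3cb, phosphatases that desensitize TRPV1, were higher by 1.24 (SE 0.12, limma adjusted p = 0.00205) and 0.77 (limma adjusted p = 0.0344). Prkce, a kinase that sensitizes it, averaged 56.5 TPM (SD 6.53, n = 4) against 25.5 TPM (SD 11.0, n = 3), a log2 difference of 1.20 (limma adjusted p = 0.0235). The vesicle protein Syt9 was higher by 1.01 (limma adjusted p = 0.0125). The lipid kinase Pip5k1c and the phospholipase Plcb3 also rose, by 0.94 and 0.73, while the calmodulin genes Calm2 (0.09) and Calm3 (0.02) did not pass. The TRPV1 and TRPM8 partner Pirt (0.52, limma adjusted p = 0.0577) and Tmem100, which links TRPA1 with TRPV1 (0.52, limma adjusted p = 0.0723), did not pass.

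Receptors that sensitize or open these channels formed a list of 28. Of the 23 tested, 7 were higher and none lower at ZT20 (median 0.68, beside 0.23 for all tested genes, of which 12.8% were higher and 3.61% lower). The leukotriene receptor Cysltr2 averaged 7.92 TPM (SD 1.22, n = 4) against 2.25 TPM (SD 2.09, n = 3), a log2 difference of 1.66 (limma adjusted p = 0.0312). The serotonin receptor Htr2a rose by 1.31 (limma adjusted p = 0.0115), the oncostatin M receptor Osmr by 1.02 (limma adjusted p = 0.0450) and its partner Il6st by 0.97 (limma adjusted p = 0.0257). The prostacyclin receptor Ptgir rose by 0.88, and Ret and Gfra3, receptors for ligands of the GDNF family, by 0.69 and 0.68. Mrgprd, which marks nonpeptidergic nociceptors, did not pass (0.61, limma adjusted p = 0.0599).

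Channels other than TRPs that shape thermal responses formed a list of 14, all tested, with 5 higher and none lower (median 0.62; 12.8% and 3.61% of all tested genes, median 0.23). Among them were the potassium channel Kcna2 (1.20) and the sodium channels Scn11a (1.18), Scn9a (0.90) and Scn10a (0.81), with limma adjusted p-values from 0.00769 to 0.0137. Kcna1 (0.96, limma adjusted p = 0.0509) did not pass. Of 14 nociceptor markers 7 were higher and none lower (median 0.55), read against the same shares and median of all genes, among them the transcription factors Runx1 (1.36) and Prdm12 (1.11). The peptide genes Calca (0.09) and Calcb (-0.43), which mark many Trpv1 neurons, did not pass. Of the other marker lists, macrophage markers had 1 gene higher (Mrc1) and 1 lower (C1qa) of 10 tested, and Schwann cell markers 1 higher (Drp2) of 9. Lymphoid, endothelial and mural, fibroblast and erythroid markers had no gene called of 7, 4, 7 and 5 tested.

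The genes whose log2(TPM + 1) was most like a member's over the 7 libraries were found by Pearson's r, as a description that includes the difference between the groups. For Trpv1 they were Scn10a, Atn1 and Piezo2 (r from 0.987 to 0.992), for Trpa1 Gm42433, Gm38910 and Casz1 (0.990 to 0.998), and for Trpm8 Esyt2, Gm4924 and Cep290 (0.993 to 0.994). Over these 7 points 3.62%, 2.94% and 2.12% of all tested genes had an r above 0.9 with Trpv1, Trpa1 and Trpm8. Among the members, Trpm8 was most like Trpa1 (r = 0.961) and Trpm2 (r = 0.951), and Trpv1 most like Trpm4 (r = 0.906).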

How the data were processed

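The deposited values are transcript abundances in TPM, with 1 column per sample, a value scaled within each sample. Per the submitters' processing notes, the tools included FastQC 0.11.9, Trim Galore 0.6.6 and Salmon 1.6.0, and the build was GRCm39. The annotation release and any scaling between samples are not given in the sources used here. All 7 columns were matched to samples by name.

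Values were analysed as log2(TPM + 1). The 14800 genes averaging at least 1 TPM were fitted with limma 3.58.1 (R 4.3.3, eBayes with an intensity trend, two-sided, Benjamini-Hochberg adjustment) without covariates. The fit was tested on simulated data. Transcript length, GC content and overlaps came from GENCODE M21, matched by identifier (14745 tested genes); none of its coordinates are printed, since its build differs. Figures were drawn with matplotlib 3.10.9.

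The members, lists and alternatives were chosen with earlier results of these data known. All 9 members are named, and from each list genes past the threshold, at most 4 in a direction by size, and up to 3 of the most abundant; some that this rule names are not reported here. Pirt, Tmem100, Plcb3, Ppp3cb, Ptgir, Gfra3, Trpv3, Trpv5 and Trpv6 were added after their values were seen.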

Additional observations from a re-analysis of the deposited data

Results flagged for a closer look

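Trpa1 had 1 ZT20 library far from the other 3. Replicate 3 had 18.7 TPM and replicates 1, 2 and 4 had 15.8 to 16.2 TPM, so that the gap to its nearest neighbour took a share of 0.848 of the whole range, above the 95% critical share of 0.829. It was the 1 case among 17 TRP channel genes examined, and chance gives about 1 in 20. Without that library the log2 difference of Trpa1 was 0.50 (limma adjusted p = 0.217).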

How the results depend on the processing

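Counts of called members were small and moved with most settings. Against 2 of 9 members (16.4% of all tested genes), 1 passed in several settings, each time Trpv1. These were a pseudocount of 0.1 (15% of all tested genes), a mean of at least 5 TPM (22.2%, 7 members tested) and median-ratio scaling (15.5%). The others were quantile normalization (12.4%) and the replicate block (7.93%). After the length and GC correction 1 passed, Trpm7 (9.06%). With array weights 5 passed (26.3% of all tested genes). Without a filter 0 passed (3.69%), as when scaled to neuron markers (20.2%), with the marker score as covariate (0%), and without the libraries that lacked Y-linked transcripts (0%). In these settings, by limma, 4, 3, 0 and 2 members in that order had an unadjusted p-value under 0.05. Leaving out each library gave 0 to 5 members (0 without ZT20 replicate 1, 3 or 4, with 3, 2 and 3 at an unadjusted p-value under 0.05) and 723 to 3047 genes.

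Of all genes 2433 passed (1899 higher, 534 lower). The count was 1178 without a filter, 1336 after the length and GC correction, 1174 with the replicate block and 3899 with array weights. By limma it was 0 with the marker score as covariate (1574 at an unadjusted p-value under 0.05). The marker score did not overlap between the groups, so that fit hardly separates it from the group. There the SE of Trpv1 was 0.50, against 0.21 without the score. The count was also 0 by limma without the libraries that lacked Y-linked transcripts (2378). The setting without the 3 ZT20 libraries above 1 TPM of Xist was added after seeing the data. It leaves a lone ZT20 sample, assumed to vary like the others, so only its differences are given. Median-ratio scaling gave 1128 higher and 1160 lower, quantile normalization 1023 and 814, scaling to neuron markers 562 and 2434, and the length and GC correction 561 and 775.

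Signs turned for Trpm3 (-0.15 under median-ratio scaling, -0.29 under quantile normalization, -0.36 scaled to neuron markers, -0.65 after the length and GC correction, -0.22 without the libraries with Xist, and -0.21 to 0.46 when each library was left out), Trpm4 (-0.15 scaled to neuron markers, -0.21 after the correction), Trpm2 (-0.067 after the correction), Trpv2 (-0.11 scaled to neuron markers) and Trpm7 (0.39 with the marker score). The cause was not tested. Trpv1, Trpa1, Trpm8 and Trpc1 were positive in each setting that tested them.

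Same-numbered samples share a number and no stated source. Their deviations correlated at -0.014, 0.15 and 0.083, and with the replicate block, to which ZT20 replicate 4 adds nothing for lack of a partner, Trpv1 passed and Trpc1 did not.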

Other observations

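The balance between the cold and irritant channels split the ZT8 libraries. Trpm8 per Trpa1 TPM ran from 0.242 to 0.267 over the ZT20 libraries and was 0.0886, 0.320 and 0.0932 in the ZT8 replicates in order, so the ratio was steady at ZT20 while ZT8 replicate 2 lay above, and the other ZT8 libraries below, that range. Trpv1 per Trpv2 TPM was 0.294 to 0.490 at ZT20 and 0.182 to 0.285 at ZT8, without overlap. Both ratios were chosen after the values were seen and were not tested.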
